A study of Homo sapiens with 14 samples.

Results

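The genes described here encode 10 major cytosolic and mitochondrial heat shock proteins: HSPA1A, HSPA1B, HSPA8, HSPH1, DNAJB1, HSP90AA1, HSP90AB1, HSPD1, HSPE1 and HSPB1. They were chosen by symbol from a table of 21574 rows that holds the normalised read count of each gene, scaled to transcript length and library size (RPKM), in 10 columns. All 10 symbols had a row. HSPE1 was found only in a combined row that also names its neighbour MOB4 and the read-through gene HSPE1-MOB4, so its values belong to that row as a whole. The row is called the HSPE1 row below.

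The series comprises 14 samples of HepG2, an established hepatocellular carcinoma line. Control cells received a scrambled siRNA and knockdown (KD) cells received siADAR1, an siRNA against ADAR1, the adenosine deaminase that edits double-stranded RNA. Structure was probed by PARS-seq in 8 libraries, in which purified poly(A)+ RNA is refolded in vitro and cut with S1 nuclease (single-stranded bases) or RNase V1 (double-stranded bases), with 2 replicates of each condition and enzyme. RNA-seq had 1 library per condition, and ribosome profiling (Ribo-seq), which sequences the mRNA stretches covered by ribosomes, had 2 replicates per condition. The silencing was done with 1 siRNA, so the KD group stands for that siRNA.

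Heat shock proteins are molecular chaperones. HSP70 proteins (HSPA8, HSPA1A, HSPA1B) bind exposed hydrophobic stretches of unfolded proteins in cycles of ATP hydrolysis, which J-domain proteins such as DNAJB1 stimulate and exchange factors such as HSPH1 reset. HSP90 proteins take over partly folded clients such as kinases and steroid receptors, the HSPD1-HSPE1 chaperonin folds proteins inside the mitochondrial matrix, and HSPB1 holds unfolded proteins without using ATP. Some members (HSPA8, HSP90AB1) are made constantly in most cells, whereas HSPA1A, HSPA1B and DNAJB1 are classical targets of heat shock factor 1.

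ADAR, the targeted gene, had 54.8 RPKM in the control RNA-seq library and 15.4 in the KD library, 72.0% lower. In PARS-seq it was 62.9% and 67.8% lower in KD for replicate numbers 1 and 2. In Ribo-seq it had 43.6 and 55.5 RPKM in the control replicates, 8.73 in KD replicate 1 and 44.03 in the library labelled KD replicate 2. The groups overlapped, as that library was not below control replicate 1. The HepG2 label went against its defining markers: of 8 hepatocyte genes (ALB, AFP, APOA1, APOB, SERPINA1, TF, TTR, FGB), all 8 were under 1 RPKM in every column. Their highest single value was 0.0821 RPKM, and their sum ranged from 0 to 0.126 RPKM across columns. Of 7 markers of other cells, PTPRC, PECAM1, EPCAM and KRT5 stayed under 1 RPKM, while COL1A1 reached 54.7, CD68 reached 22.7 and the combined row that holds COL3A1 reached 96.2 RPKM. No other cell identity is assigned here. In libraries of many cells, a change in RNA per cell and a change in the mix of cells cannot be told apart.

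In the genome build GRCh37 (hg19), to which the reads were aligned, HSPA1A lies at chr6:31783320-31785723 and HSPA1B at chr6:31795515-31798031. Both are on the plus strand, with 1 exon in the canonical transcript. HSPA8 lies at chr11:122928197-122933938 on the minus strand with 9 exons, HSPH1 at chr13:31709110-31736525 on the minus strand with 18, and DNAJB1 at chr19:14625581-14671203 on the minus strand with 3. HSP90AA1 lies at chr14:102547079-102606036 on the minus strand with 11 exons, and HSP90AB1 at chr6:44213903-44221625 on the plus strand with 12. HSPD1 at chr2:198351308-198381461 on the minus strand (12 exons) and HSPE1 at chr2:198364864-198368173 on the plus strand (4 exons) overlap on opposite strands. HSPB1 lies at chr7:75931990-75933612 on the plus strand with 3 exons.

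Beyond their names, several of these genes share a promoter sequence. Heat shock factors bind heat shock elements, which are alternating copies of GAA and TTC separated by any pair of bases. The RefSeq promoters of build GRCh38.p14 (250 bases before to 50 after the start) were searched for the 3-unit patterns GAANNTTCNNGAA and TTCNNGAANNTTC, which cover both strands and may overlap. A match was present in 0.490% of 35116 promoters of the genome, and in 4 of the 16 promoters of the 10 genes, 1 each of HSPA8, HSP90AA1, HSP90AB1 and HSPD1. These runs are shown because they are the sequence that the constitutive HSP70, both HSP90 genes and HSPD1 have in common. Each distance is from the start whose window holds the run. HSP90AA1, HSP90AB1 and HSPD1 also have starts further upstream, and their runs lie downstream of those. Capitals mark matches to the 3-unit patterns or to their 2-unit part, GAANNTTC or TTCNNGAA, and each run is read 5′ to 3′ on the gene's strand.
HSPA8, chr11:123062342-123062378, minus strand, 230 bases before the start: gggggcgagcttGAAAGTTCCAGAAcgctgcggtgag
HSPA8, chr11:123062167-123062203, minus strand, 55 bases before the start: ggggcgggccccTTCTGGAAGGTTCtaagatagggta
HSP90AA1, chr14:102087093-102087144, minus strand, 88 bases before the start: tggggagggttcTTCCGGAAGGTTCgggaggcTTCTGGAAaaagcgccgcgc
HSP90AB1, chr6:44247766-44247802, plus strand, 165 bases before the start: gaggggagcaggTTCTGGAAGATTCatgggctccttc
HSP90AB1, chr6:44247819-44247855, plus strand, 112 bases before the start: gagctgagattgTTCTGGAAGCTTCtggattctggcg
HSPD1, chr2:197500056-197500090, minus strand, 245 bases before the start: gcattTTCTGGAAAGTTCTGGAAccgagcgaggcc

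The 2-unit pattern was in 13.5% of all promoters and in 9 of the 16 promoters of these genes (56.2%), which belong to 8 of the 10. HSPA1A and HSPA1B had it at nearly the same distance, and their runs show how alike the pair is.
HSPA1A, chr6:31815425-31815456, plus strand, 106 bases before the start: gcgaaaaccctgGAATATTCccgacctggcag
HSPA1B, chr6:31827621-31827652, plus strand, 105 bases before the start: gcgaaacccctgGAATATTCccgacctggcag

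DNAJB1 and HSPB1 also held the 2-unit pattern only. In the windows of HSPH1 and HSPE1 neither pattern was found, which says only that these letters are not there. One of the starts of HSPD1 lies 105 bases from that of HSPE1 and their windows overlap by 204 bases. The HSPD1 run printed above lies 38 bases outside the HSPE1 window. A match is a description of the letters and not evidence that a factor binds.

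The stress-inducible HSP70 genes gave no value to compare. HSPA1A and HSPA1B were listed at exactly 0 in all 10 columns, in control and KD cells alike, and no ratio can be given for them. Their RNA is not shown to be absent, since genes around them were listed at 0 as well. Of 71 table genes within 1000000 bases of HSPA1A, 64 (90.1%) were at 0 in all 6 RNA-seq and Ribo-seq columns, against 16.4% of 16881 table genes with a position. In the 4 PARS-seq columns the shares were 85.9% and 11.1%. HSPA1L, the third HSP70 gene of that cluster, was also listed at 0 throughout. The sequences of the pair are alike too: of the 30-base stretches in the HSPA1A transcript, 77.0% occur in HSPA1B, and the authors kept uniquely aligned reads. The part of the locus and of shared sequence in these zeros was not tested.

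The other 8 members had values above 0 in every column, and their levels spanned a wide range. In the control RNA-seq library the order was HSPB1 at 664 RPKM, HSP90AB1 at 488, HSPA8 at 429, DNAJB1 at 103, HSP90AA1 at 72.1, HSPD1 at 47.0, HSPH1 at 18.3 and the HSPE1 row at 9.49. In the KD RNA-seq library the order was the same. With 1 library per condition, no spread stands behind neighbours in that order. HSPB1, HSP90AB1 and HSPA8 lay above 99.6%, 99.4% and 99.3% of the genes above 0 in the control library, whereas the HSPE1 row lay above 64.9%.

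**Figure D1:**
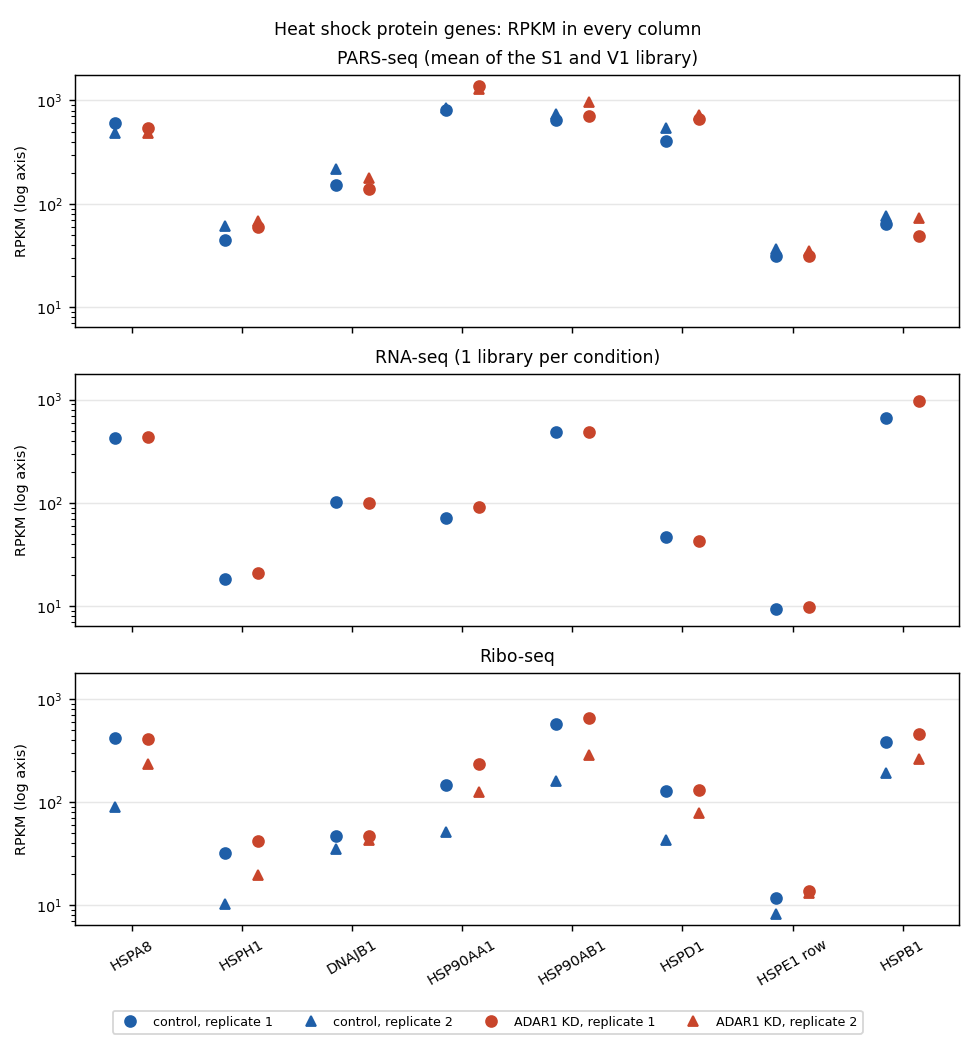
RPKM on a log axis for 8 heat shock genes in PARS-seq, RNA-seq and Ribo-seq. Circles are replicate 1 and triangles replicate 2, with control in blue and ADAR1 KD in red. HSPA1A and HSPA1B, listed at 0, cannot be drawn. HSP90AA1 leads in PARS-seq (806 to 1381 RPKM) and HSPB1 in RNA-seq (664 and 963 RPKM), and Ribo-seq triangles lie below the circles of the same condition.

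The assays ranked the genes differently. HSP90AA1, the inducible HSP90, was first in all 4 PARS-seq columns, where each value is the authors' mean of an S1 and a V1 library. Its RPKM over that of RNA-seq, with 1 added to each, was 11.04 and 11.5 in control cells against 14.8 and 14.0 in KD. HSPD1 showed the same pattern, with ratios of 8.55 and 11.3 in control cells against 15.1 and 16.6 in KD. HSPB1, the small heat shock protein, was the reverse: its PARS-seq values were 63.1 and 76.8 RPKM in control cells against 48.5 and 73.6 in KD, a ratio to RNA-seq of 0.0963 and 0.117 in control cells against 0.0514 and 0.0774 in KD. The median ratio of all genes was between 0.956 and 0.995. PARS-seq exceeded RNA-seq in both control replicates for 7 of the 8 members and for 46.7% of 11368 genes. The PARS-seq libraries were made from poly(A)+ RNA cut by an enzyme and were size-selected, and the part of this in the ratios was not tested.

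In Ribo-seq the mean RPKM of control cells was 367 ± 293 (SD, n = 2) for HSP90AB1, 289 ± 138 for HSPB1, 255 ± 235 for HSPA8, 99.5 ± 67.8 for HSP90AA1, 85.8 ± 60.6 for HSPD1, 41.3 ± 8.43 for DNAJB1, 21.3 ± 15.6 for HSPH1 and 10.1 ± 2.50 for the HSPE1 row. The ranges of neighbours in this order overlapped, with the exception of DNAJB1 and HSPH1. In both conditions replicate 1 was above replicate 2 for all 8 members. In control cells the gap was 4.69-fold for HSPA8, 3.59-fold for HSP90AB1 and 2.96-fold for HSPH1, against a median of 1.18-fold over all genes tested. Of the Ribo-seq libraries, control replicate 2 was also the lowest for every one of the 8 members.

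The comparison of KD with control asks whether the mRNA or its translation changed with less ADAR1. HSP90AA1 was 1 of 3 members with higher KD values in every assay and replicate number, and the 1 with the largest PARS-seq ratios. It had 806 and 842 RPKM in control PARS-seq against 1381 and 1306 in KD, and 72.1 against 92.2 RPKM in RNA-seq. In Ribo-seq it had 147 and 51.5 RPKM in control against 235 and 126 in KD. The PARS-seq groups did not overlap, but the Ribo-seq groups did, as KD replicate 2 lay below control replicate 1. The ratios of KD to control, with 1 RPKM added, were 1.71 and 1.55 in PARS-seq, 1.28 in RNA-seq and 1.59 and 2.42 in Ribo-seq. All 5 ratios were above 1 for 14.1% of 11368 genes, and among the members for HSP90AA1, HSP90AB1 and HSPH1.

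HSP90AB1, the constitutive HSP90, hardly differed in RNA-seq (488 and 489 RPKM). Its PARS-seq values were 645 and 740 RPKM in control cells against 702 and 959 in KD, so the groups overlapped. Its Ribo-seq values were 574 and 159 RPKM in control cells against 649 and 284 in KD, again overlapping. The 2 HSP90 transcripts have no 30-base stretch in common, but 51.8% of those of HSP90AA1 and 49.4% of those of HSP90AB1 occur elsewhere in the genome.

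HSPA8, the constitutive HSP70, had 429 and 433 RPKM in RNA-seq. In PARS-seq it had 605 and 481 RPKM in control cells against 545 and 483 in KD. Its Ribo-seq values were 422 and 89.1 RPKM in control cells against 408 and 235 in KD, so its ratio was 0.968 for replicate number 1 and 2.62 for number 2. Of the 8 members it was the one whose Ribo-seq ratio changed direction between numbers.

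HSPH1, the HSP110 exchange factor, had 44.2 and 60.8 RPKM in control PARS-seq against 60.1 and 68.6 in KD, 18.3 against 20.9 in RNA-seq, and 32.3 and 10.3 against 41.7 and 19.7 in Ribo-seq. The 2 groups overlapped in both replicated assays. DNAJB1, the J-domain partner of HSP70, had 153 and 219 RPKM in control PARS-seq against 140 and 177 in KD, 103 against 99.6 in RNA-seq, and 47.2 and 35.3 against 47.5 and 43.4 in Ribo-seq. DNAJB1 thus had lower KD values in PARS-seq and RNA-seq and marginally higher ones in Ribo-seq. The RNA-seq difference of DNAJB1 was −0.05 on the log2 scale and 0.03 when columns were rescaled by the median of ratios, so its direction depends on the scaling.

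In the mitochondrial pair, HSPD1 had 409 and 540 RPKM in control PARS-seq against 660 and 726 in KD, with no overlap. Its RNA-seq values were 47.0 and 42.7 RPKM, a ratio of 0.910, and its Ribo-seq values were 129 and 43.0 RPKM in control cells against 130 and 78.9 in KD. The HSPE1 row had 31.3 and 36.5 RPKM in control PARS-seq against 31.6 and 35.04 in KD, and 9.49 against 9.78 in RNA-seq. In Ribo-seq that row had 11.9 and 8.35 RPKM in control against 13.9 and 13.3 in KD, and it was the only member row without overlap there. HSPB1 had 664 RPKM in control RNA-seq and 963 in KD, a ratio of 1.45, which was the largest RNA-seq ratio of the 8 members. Its Ribo-seq values were 386 and 191 RPKM in control cells against 462 and 260 in KD, whereas its PARS-seq values, given above, were lower in KD for both replicate numbers.

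**Figure D2:**
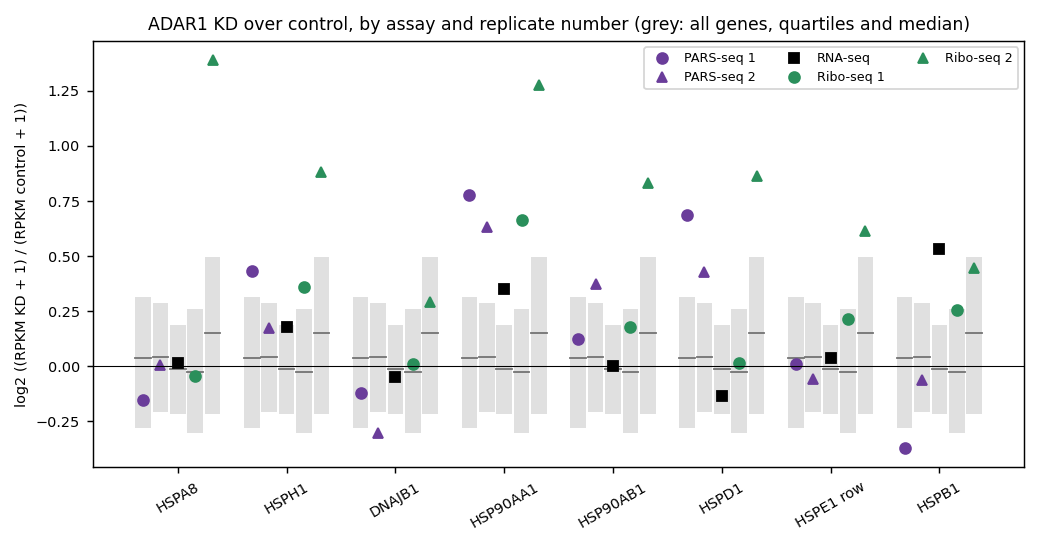
Log2 ratio of ADAR1 KD to control for 8 heat shock genes, with 1 RPKM added to both. Purple points are PARS-seq, black squares RNA-seq and green points Ribo-seq; circles are replicate number 1 and triangles number 2. Grey boxes give the quartiles and the grey line the median of all genes with a mean of at least 1 RPKM. The Ribo-seq triangles are above 0 for 8 of 8 genes, and the RNA-seq squares lie between −0.14 and 0.53.

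Across the 8 members the median ratio was 1.05 and 1.06 in PARS-seq, 1.02 in RNA-seq, and 1.14 and 1.80 in Ribo-seq. The medians over all genes were 1.02 and 1.03 in PARS-seq, 0.991 in RNA-seq, and 0.984 and 1.11 in Ribo-seq. No member passed 1.5-fold in RNA-seq, as 9.13% of 10944 genes did, but HSPB1 did after median-of-ratios scaling (log2 ratio of 0.61 in place of 0.53). In PARS-seq, 2 of 8 members had higher KD values with no overlap between groups, against 33.3% of 11151 genes. In Ribo-seq 1 of 8 did, against 10.7% of 10880 genes, although 7 of 8 were higher in KD within both replicate numbers, against 31.3%.

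No member passed the test of KD against control in Ribo-seq (limma on log2 of RPKM with 1 added, two-sided, Benjamini-Hochberg adjustment over 10880 genes). The test called 0% of genes, 0 in all, and 43 genes had an unadjusted p under 0.05. The log2 difference, KD minus control, was 0.97 ± 0.75 (SE) for HSP90AA1, 0.67 ± 0.93 for HSPA8, 0.62 ± 0.72 for HSPH1, 0.50 ± 0.91 for HSP90AB1, 0.44 ± 0.73 for HSPD1, 0.41 ± 0.42 for the HSPE1 row, 0.35 ± 0.72 for HSPB1 and 0.15 ± 0.47 for DNAJB1, each with a limma adjusted p of 1.00. Without control replicate 2, the library low for all members, the difference was −0.44 for HSPA8, −0.42 for HSP90AB1, −0.34 for HSPD1, −0.16 for HSPH1, −0.16 for HSPB1 and −0.06 for DNAJB1, and it stayed above 0 for HSP90AA1 (0.22) and the HSPE1 row (0.18). Without KD replicate 2, whose ADAR value was within the range of the control replicates, the differences were 0.21 to 1.42 for the 8 members. Both fits leave the replicate numbers unmatched, and replicate 1 was above replicate 2 in both conditions. These differences therefore mix KD with the replicate number. Within replicate number 1 alone, the log2 ratios ran from −0.05 for HSPA8 to 0.67 for HSP90AA1, above 0 for 7 members. A permutation of 2 against 2 samples cannot give a two-sided p below 0.333.

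Translation efficiency is the Ribo-seq level over the RNA-seq level of the same condition, here with 1 RPKM added to each. HSPD1 had the highest value of the members in all 4 libraries, and DNAJB1 and HSPB1 were below the median of all genes in all 4. HSPD1 had ratios of 2.70 and 0.916 in control cells against 2.99 and 1.83 in KD. HSP90AA1 had 2.03 and 0.718 in control cells against 2.53 and 1.36 in KD, and HSPH1 had 1.72 and 0.582 in control cells against 1.95 and 0.946 in KD. DNAJB1 had 0.463 and 0.349 in control cells against 0.482 and 0.441 in KD. HSPB1, the most abundant member in RNA-seq, had 0.582 and 0.288 in control cells against 0.480 and 0.271 in KD. The median of all genes was 0.783 and 0.681 in control. The constitutive HSP90AB1 had ratios of 1.18 and 0.328 in control cells against 1.33 and 0.581 in KD, below HSP90AA1 in each of the 4 libraries.

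**Figure D3:**
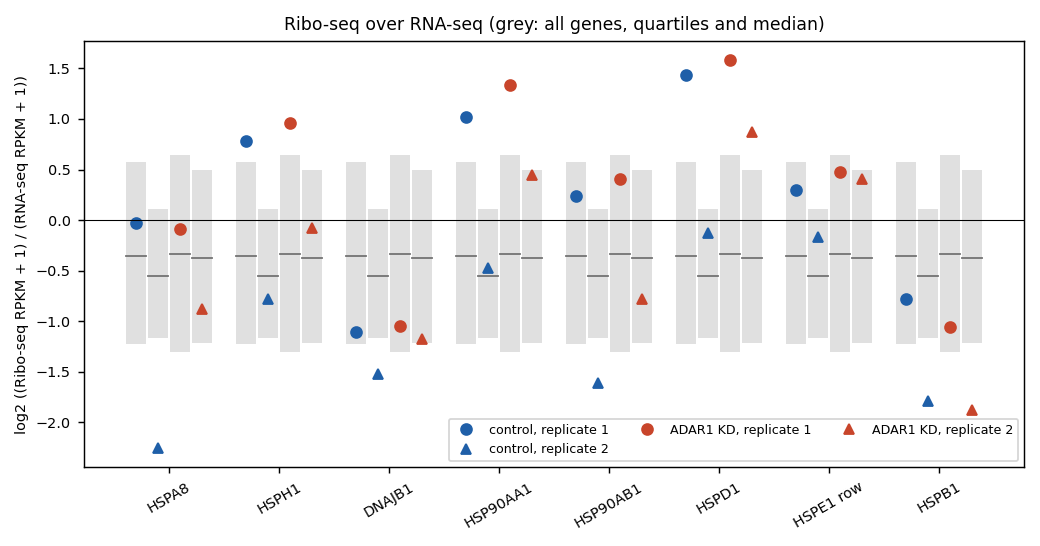
Log2 of Ribo-seq over RNA-seq for 8 heat shock genes, 1 RPKM added to both, in control (blue) and ADAR1 KD (red) cells; circles are replicate 1 and triangles replicate 2. Grey boxes and lines are the quartiles and median of all genes. HSPD1 reaches 1.58 in KD replicate 1, and HSPA8 is lowest at −2.26 in control replicate 2.

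The translation efficiency ratio (TER) compares this efficiency between KD and control. It was above 1 in both replicate numbers for 6 of the 8 members, against 35.3% of 11163 genes, with values of 1.24 and 1.90 for HSP90AA1, 1.13 and 1.78 for HSP90AB1, 1.13 and 1.62 for HSPH1, and 1.11 and 2.00 for HSPD1. HSPB1 was below 1 in both (0.825 and 0.939). HSPA8 had 0.959 and 2.60. The median of all genes was 1.00 and 1.13. In the interaction test of assay and condition (limma, 11163 genes, adjusted over all), no member passed and the test called 0% of genes, 0 in all, with 4 genes at an unadjusted p under 0.05. The log2 differences of the members ran from −0.18 ± 1.13 (SE) for HSPB1 to 0.66 ± 1.55 for HSPA8, each with a limma adjusted p of 1.00. Without Ribo-seq control replicate 2 the log2 difference was below 0 for 7 of the 8 members (−0.13 for HSP90AA1, −0.42 for HSP90AB1, −0.46 for HSPA8, −0.21 for HSPD1, −0.34 for HSPH1, −0.0067 for DNAJB1 and −0.69 for HSPB1) and above 0 for the HSPE1 row (0.14). That fit sets both KD replicates against control replicate 1 only, so it mixes KD with the replicate number. Within replicate number 1 the log2 TER was above 0 for 6 members, from −0.28 for HSPB1 to 0.32 for HSP90AA1. Both Ribo-seq replicates of a condition share 1 RNA-seq library, so the interaction test holds no spread of RNA-seq.

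The read starts of PARS-seq, which mark the cut positions, are tabulated per base for transcripts with UCSC identifiers. For 6 members the identifier could be paired with the symbol, and these transcripts are HSP90AA1 (3887 bases), HSPH1 (3680), HSP90AB1 (2644), HSPD1 (2339), DNAJB1 (2233) and HSPB1 (914). The pairing came from a list that the study chose for a structural change in these samples, so what follows on structure is a description. HSPA8, HSPE1, HSPA1A and HSPA1B have no paired identifier and were not analysed here. The libraries held between 96618292 and 214584779 read starts, and S1 control replicate 1 listed 4722 transcripts where the other 7 listed 21052 to 22402.

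The HSP90 and chaperonin transcripts were among the most covered of all. HSP90AA1 ranked between 6 and 13 of 4722 transcripts in the S1 libraries and between 8 and 14 of 19639 in the V1 libraries. HSP90AA1 had 375475 and 370933 S1 read starts in control cells against 620807 and 414574 in KD. Its V1 counts were 371916 and 296334 in control cells against 631919 and 405107 in KD. After division by size factors (median of ratios), its S1 values were 304137 and 345868 in control cells against 614598 and 554452 in KD, so the groups did not overlap.

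**Figure D4:**
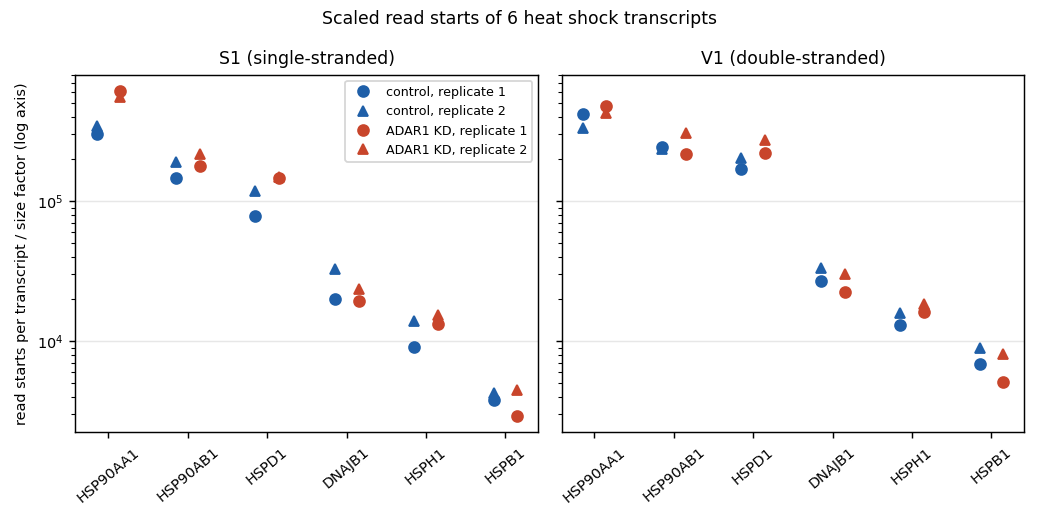
Read starts per transcript divided by the library's size factor, on a log axis, for 6 heat shock transcripts in S1 (left) and V1 (right) libraries; control is blue and ADAR1 KD red, with circles for replicate 1 and triangles for replicate 2. HSP90AA1 stands highest, between 304137 and 614598 in S1, and HSPB1 lowest, between 2919 and 4512 in S1.

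HSPD1 had 96617 and 125985 S1 read starts in control cells against 147916 and 110577 in KD, which became 78260 and 117472 in control cells against 146437 and 147886 in KD after scaling. In V1 the scaled values of HSPD1 were 171247 and 202930 in control cells against 219460 and 273278 in KD. With these size factors, both enzymes gave higher KD values for HSPD1 with no overlap. HSPB1, the shortest transcript and the least covered, had 4717 and 4608 S1 read starts in control cells against 2948 and 3374 in KD, and its scaled groups overlapped for both enzymes. In S1, 2 of 6 transcripts had higher scaled KD values with no overlap, against 28.6% of 4721 transcripts. In V1, 3 of 6 did (HSP90AA1, HSPD1 and HSPH1), against 27.6% of 17206. The scaled groups of the others overlapped. Scaled to the library total, the V1 groups overlapped for all 6 transcripts. In S1 on that scale, HSP90AA1 and HSPD1 were again higher in KD with no overlap (8.05% of transcripts), and DNAJB1 and HSPB1 were lower with no overlap (54.5%).

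None of the 6 transcripts was called between KD and control (limma on log2 scaled read starts with 0.5 added, two-sided, adjusted over all transcripts). The S1 test called 15.6% of 4721 transcripts, 310 higher and 428 lower in KD, and the V1 test called 10.2% of 17206, 656 higher and 1104 lower. Scaled to the library total, the splits became 70 higher and 878 lower in S1 and 346 higher and 1315 lower in V1. With the most covered transcript left out of that total, the V1 split became 899 higher and 898 lower. In S1 the log2 difference was 0.85 ± 0.30 (SE) for HSP90AA1 (limma adjusted p = 0.0619), 0.62 ± 0.27 for HSPD1 (adjusted p = 0.124) and 0.34 ± 0.23 for HSPH1 (adjusted p = 0.351). It was 0.23 ± 0.28 for HSP90AB1, −0.16 ± 0.23 for HSPB1 and −0.26 ± 0.25 for DNAJB1. In V1 the values ran from −0.27 ± 0.25 for HSPB1 to 0.39 ± 0.26 for HSPD1, with adjusted p between 0.380 and 0.841 (limma). Without S1 control replicate 2, HSP90AA1 (0.94, adjusted p = 0.0177) and HSPD1 (0.91, adjusted p = 0.0131) passed the limma test in S1. Without S1 control replicate 1, HSP90AA1 had 0.66 (limma adjusted p = 0.0901) and HSPD1 0.23 (adjusted p = 0.715), and with scaling to the library total they had 0.48 (adjusted p = 0.338) and 0.25 (adjusted p = 0.555). These read starts and the PARS-seq RPKM columns come from the same libraries, so one does not add support to the other.

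Read starts were concentrated in short parts of each transcript. In HSP90AA1 the stretch from 22% to 24% of the length, 1 of 50 equal bins, held 51.0% and 51.1% of S1 read starts in control cells against 58.0% and 59.4% in KD, and the base at position 922 was the highest in all 4 S1 libraries. Its 10 highest bases held 42.4% and 44.1% of S1 read starts in control cells against 49.96% and 51.7% in KD. In V1 the same bin held 34.5% to 39.7%. With the 10 highest bases left out, a choice made after the data were seen, the mean log2 difference of HSP90AA1 in S1 was 0.64 in place of 0.85, and over those 10 bases alone it was 1.08.

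**Figure D5:**
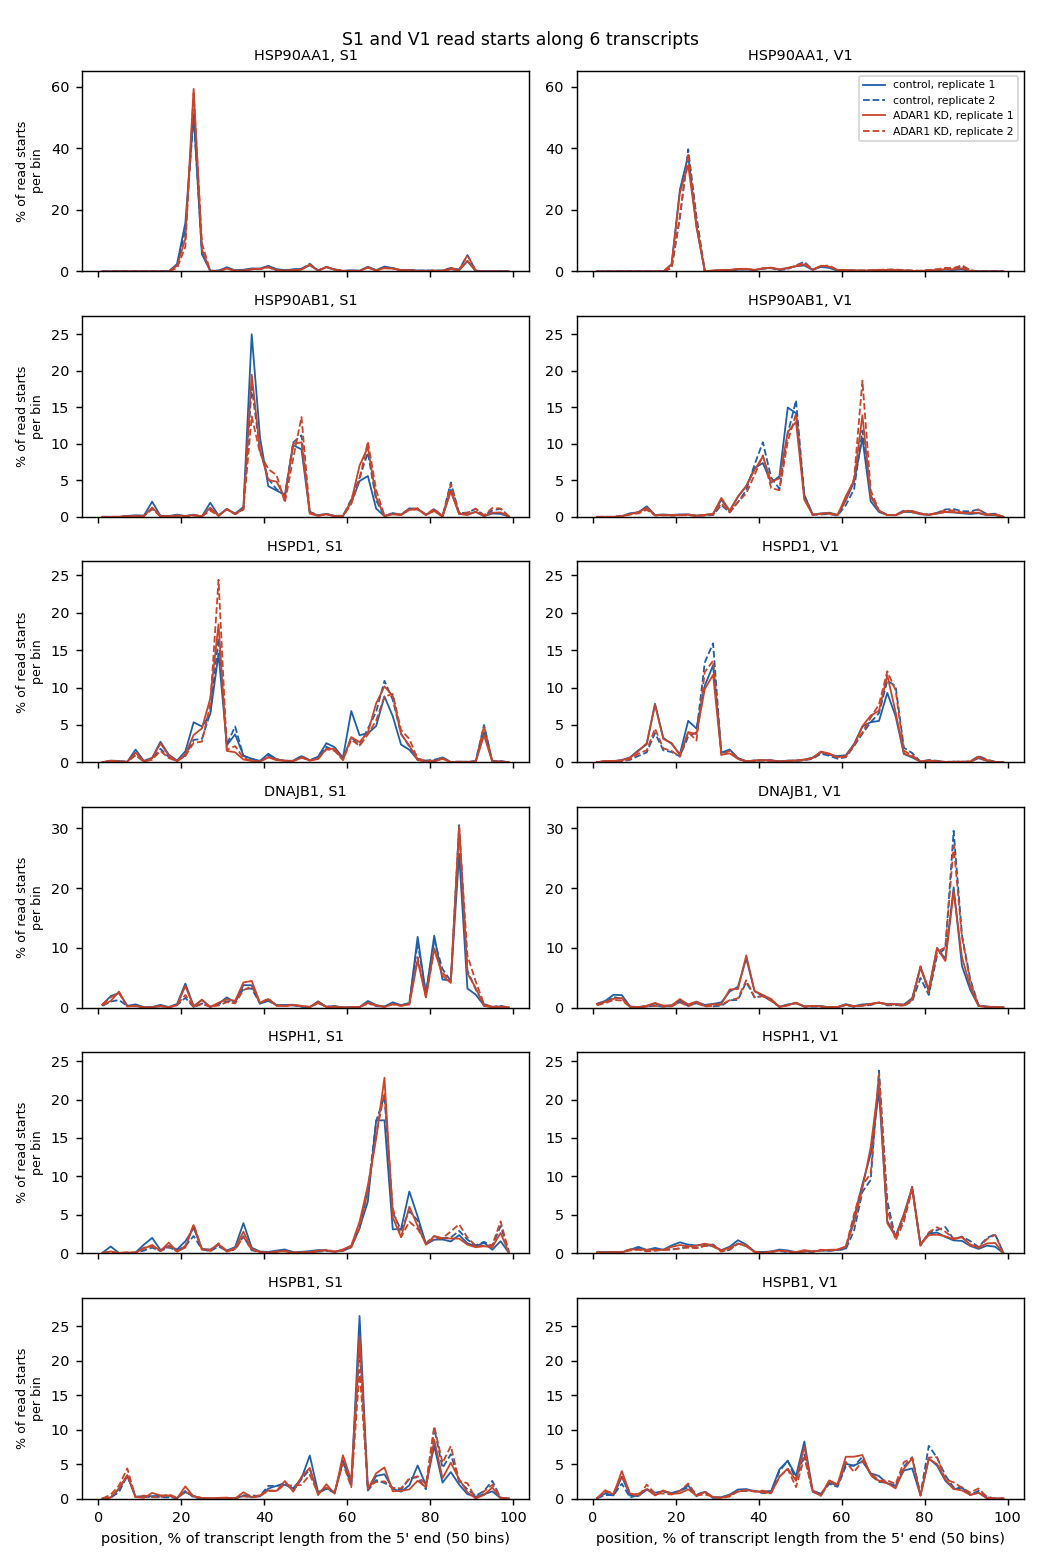
Share of a transcript's read starts in each of 50 equal bins from its 5′ end, in percent, for 6 heat shock transcripts; the left column is S1, the right column V1, with control in blue, ADAR1 KD in red, solid lines for replicate 1 and dashed lines for replicate 2. The libraries of an enzyme peak in mostly the same bins, with heights that differ, and HSP90AA1 peaks at 51.0% to 59.4% in S1 between 22% and 24% of its length.

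The other transcripts peaked elsewhere. The highest S1 bin lay between 36% and 38% of the length in HSP90AB1 (13.8% to 25.02% of read starts), between 28% and 30% in HSPD1 (14.5% to 24.4%), and between 86% and 88% in DNAJB1 (25.7% to 30.6%). In HSPH1 it lay between 68% and 70% (17.3% to 22.9%), and V1 peaked in the same bin (21.1% to 23.8%). In HSPB1 the S1 peak lay between 62% and 64% (18.6% to 26.5%), while in V1 the bin from 50% to 52%, the highest in 2 libraries, held 5.98% to 8.27%. The highest bin was the same in all 4 libraries of an enzyme, except for V1 of HSP90AB1 and HSPB1, where it was shared by 2 libraries.

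Spearman's correlation over bases, given as a description since bases of a transcript share library, depth and sequence, was 0.672 to 0.924 between S1 replicates and 0.668 to 0.915 between control and KD of the same number. For V1 the ranges were 0.650 to 0.946 and 0.667 to 0.943. Between S1 and V1 of the same condition and number it was 0.252 to 0.634. HSP90AA1 gave the highest value of each range, and HSPH1, with 3.03 to 5.82 read starts per base, the lowest of those within an enzyme. Many 30-base stretches of the annotated transcripts occur elsewhere in GRCh37 (51.8% for HSP90AA1, 49.4% for HSP90AB1, 70.8% for HSPD1, 18.4% for DNAJB1, 30.3% for HSPB1 and 0.959% for HSPH1). The read starts came from reads aligned uniquely to the set of canonical transcripts and not to the genome, so these shares do not say which reads were lost. The part of shared sequence in the peaks was not tested.

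The balance of the enzymes is given by V1 over S1 read starts on the log2 scale, scaled over all 8 libraries, where a higher value means more double-stranded cuts. HSPD1 had 0.84 and 0.69 in control cells against 0.58 and 0.86 in KD, and HSPB1 had 0.55 and 0.95 in control cells against 0.81 and 0.83 in KD. Both were above the 75th percentile of all transcripts (0.34 and 0.33 in control) in every library. HSP90AA1 had 0.18 and −0.17 in control cells against −0.37 and −0.40 in KD. HSP90AA1 was the transcript of the 6 with lower KD values for both replicate numbers, by −0.55 and −0.24, where the quartiles of all transcripts were −0.18 and 0.17 for number 1 and −0.11 and 0.13 for number 2. DNAJB1 was higher in KD for both (0.07 and 0.40), as was HSPH1 (0.04 and 0.17). HSP90AB1, HSPD1 and HSPB1 changed direction between numbers.

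The gene with the most similar set of ratios is given for 7 of the 8 members, out of 2717 other genes with at least 10 RPKM in every column, by Euclidean distance over the 5 log2 ratios of KD to control. The nearest were TIMM10 for HSPA8 (0.14), HNRNPR for HSPH1 (0.14), SDF2L1 for DNAJB1 (0.10), SF3B4 for HSP90AA1 (0.35), a combined row with CCT6A for HSPD1 (0.18), UBQLN1 for the HSPE1 row (0.09) and PGRMC1 for HSPB1 (0.26). Among the members themselves, the closest pair was HSP90AB1 and HSPH1 at 0.45, and 89 of the 2717 genes were nearer to HSPH1 than that.

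The wider chaperone network was read from 8 lists with 85 genes, of which 75 passed the low-value filter. None of the 75 was called in Ribo-seq or in TER. In RNA-seq and both Ribo-seq numbers together, 22 were higher and 11 lower in KD, and 42 were mixed, where 19.2% of 10880 genes were higher and 14.3% lower. All 5 ratios were above 1 for 15 and below 1 for 6, where 14.1% of all genes were above and 9.35% below. The median Ribo-seq log2 ratio of the 75 was 0.04 for number 1 and 0.37 for number 2, the pair that holds the control library low for the members, against −0.02 and 0.15 over all genes.

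Small heat shock proteins, a list without the member HSPB1, had the lowest list medians in PARS-seq and RNA-seq. The median log2 ratio of the 4 tested was −1.06 and −0.85 in PARS-seq and −0.50 in RNA-seq. The same medians in Ribo-seq were −0.22 and 0.06 for numbers 1 and 2, with no gene called. In RNA-seq the ratios were −1.24 for HSPB7, −0.88 for HSPB8, −0.12 for CRYAB and 0.28 for HSPB11, and HSPB1 had 0.53. HSPB7, a small heat shock protein best known from heart and muscle, had 92.1 and 73.0 RPKM in control PARS-seq against 17.9 and 15.5 in KD. It had 159 against 66.8 RPKM in RNA-seq, and 46.5 and 93.2 against 14.5 and 41.4 in Ribo-seq, a Ribo-seq log2 difference of −1.38 ± 0.71 (SE, limma adjusted p = 1.00). HSPB8, which works with BAG3 in selective autophagy, had 38.7 and 36.6 RPKM against 14.7 and 16.1 in PARS-seq and 64.3 against 34.5 in RNA-seq. Its Ribo-seq values overlapped, with 43.6 and 17.0 RPKM in control and 30.9 and 22.2 in KD. In RNA-seq, with 1 library per condition, these contrast with HSPB1, which was higher in KD. In PARS-seq HSPB1 was lower in KD too, with ratios of 0.773 and 0.958. HSPB11, of the same list, had 25.4 against 31.1 RPKM in RNA-seq, and CRYAA, HSPB2, HSPB3, HSPB6 and HSPB9 did not pass the filter. In the HSP70 and HSP110 list 5 of 8 genes were tested. HSPA4, an HSP110 relative, had 24.9 and 23.0 RPKM in RNA-seq, HSPA14 had 7.54 and 7.58, and HSPA4L had 4.10 and 4.39. HSPA6, another inducible HSP70, stayed at or below 0.340 RPKM.

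Among 15 J-domain proteins, 4 were higher and 3 lower in KD in RNA-seq and both Ribo-seq numbers. DNAJA1, an HSP70 partner, had 107 and 104 RPKM in RNA-seq, and DNAJC8 had 37.8 and 41.6. DNAJC9, which also binds histones, had 34.7 against 47.0 RPKM in RNA-seq, and DNAJC7 had 25.4 against 28.3, while DNAJB5 had 4.21 against 4.06 and the row with DNAJC5 had 29.7 against 28.0. Of the exchange and BAG proteins, 4 of 6 were higher, among them BAG2, an inhibitor of the STUB1 ligase (23.0 against 32.6 RPKM), and BAG4 (1.68 against 2.56), and 1 was lower, BAG1 (268 against 245 RPKM). HSPBP1, another exchange factor, had 72.2 against 76.4 RPKM.

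Of 14 HSP90 co-chaperones, 5 were higher and 3 lower. PPID, a cyclophilin that docks on HSP90, had 15.4 against 18.3 RPKM in RNA-seq, and 17.5 and 6.24 against 32.6 and 20.4 in Ribo-seq, so its Ribo-seq log2 difference was 1.21 ± 0.62 (SE, limma adjusted p = 1.00). SGTA had 38.6 against 72.4 RPKM in RNA-seq, and 9.11 and 7.95 against 15.3 and 19.9 in PARS-seq. STUB1, the ubiquitin ligase that acts on HSP70 and HSP90 clients, had 213 against 207 RPKM in RNA-seq, and UNC45A, a myosin chaperone, 34.8 against 29.0. The row with CDC37, the kinase co-chaperone, had 247 against 227. Of 14 mitochondrial chaperones and proteases, 3 were higher and 1 lower. CLPP, a matrix protease subunit, had 92.5 against 150.04 RPKM in RNA-seq and 44.5 and 46.0 against 75.5 and 57.4 in Ribo-seq, and its partner CLPX had 11.9 against 14.2 in RNA-seq. CLPB, a disaggregase of the mitochondrial intermembrane space, had 17.2 against 13.4, TRAP1, the mitochondrial HSP90, 225 against 195, and LONP1, a matrix protease, 146 against 157.

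Of 13 tested genes of the TRiC/CCT chaperonin and prefoldin, 3 were higher and 1 lower in RNA-seq and both Ribo-seq numbers. CCT3 had 549 against 442 RPKM in RNA-seq, CCT4 had 75.3 against 82.9, CCT8 had 32.3 against 38.9, PFDN5 had 347 against 339 and PFDN1 had 39.7 against 32.8. Among the heat shock factors, HSF1, the regulator of the heat shock response, had 150 against 145 RPKM in RNA-seq, and 32.2 and 60.8 against 33.1 and 37.7 in Ribo-seq. HSBP1, an HSF1-binding protein, had 38.6 against 33.6 in RNA-seq, and the row with HSF4 had 5.56 against 4.84. The median log2 ratio of the heat shock factors in Ribo-seq was −0.04 for number 1 and −0.22 for number 2.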

How the data were processed

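The authors aligned reads to hg19 with Bowtie2 after adapter trimming, kept uniquely aligned reads, and deposited RPKM per RefSeq gene, 1 value per RNA-seq and Ribo-seq library and 1 mean of the S1 and V1 library per PARS-seq replicate. They also deposited, as other files, whole-number lists of read starts at each base of UCSC canonical transcripts, to which the reads were aligned directly. These lists were summed per transcript. The table of 21574 rows had 2 rows with a repeated symbol, left out, and 25 symbols turned into dates. RPKM carries no depth, so limma 3.58.1 (R 4.3.3) was run on log2(RPKM + 1), keeping genes whose mean reached 1 RPKM. For read starts it was run on log2 of scaled counts with 0.5 added, for transcripts with at least 10 read starts in 2 libraries and 15 in total. Tests were two-sided, adjusted over all features by Benjamini-Hochberg and called at 0.05. They were also run on simulated counts with no offset between replicate numbers, where the RPKM fits used median-of-ratios scaling, unlike the main fits. That run does not give the power in these data. Alternatives changed the pseudocount, the filter, the scaling, the replicate number as a block, and left out each replicate. The replicates are biological per the study's methods. Named genes were all members, and from each list up to 2 genes with the highest control RNA-seq RPKM and up to 2 per direction with the largest mean log2 ratio among those changed alike in RNA-seq and both Ribo-seq numbers. Members and lists were chosen with earlier results of these data known. Promoters were taken from RefSeq (GRCh38.p14), in which all 10 genes matched by symbol. Stretches of 30 bases were counted with numba 0.67.0 in GRCh37. RPKM carries no counting interval, so errors are SDs or SEs over replicates. The gene nearest to HSP90AB1 is not reported here.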

Additional observations from a re-analysis of the deposited data

Results flagged for a closer look

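In 2 genes the PARS-seq and Ribo-seq ratios of KD to control went opposite ways in every replicate number, and the difference between the assays was not tested. DNAJB1 had ratios of 0.919 and 0.811 in PARS-seq and 1.01 and 1.22 in Ribo-seq, a gap of 0.36 between the mean log2 ratios. HSPB1 had 0.773 and 0.958 in PARS-seq and 1.20 and 1.36 in Ribo-seq, a gap of 0.57. The Ribo-seq direction of both turned in fits with 1 library left out, which leave the replicate numbers unmatched. Without control replicate 2 the Ribo-seq log2 difference was −0.056 for DNAJB1 and −0.16 for HSPB1, and without KD replicate 1 it was −0.063 for HSPB1.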

How the results depend on the processing

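No member was called in Ribo-seq, TER or V1 under any alternative run. In S1 the count of called members was 0, with 2 (HSP90AA1, adjusted p = 0.00831, and HSPD1, adjusted p = 0.0361, limma) under the replicate block. Same-numbered libraries deviated together (correlation 0.81 in Ribo-seq, 0.47 in S1, 0.36 in V1), but 2 pairs do not establish a pairing. The block moved the calls over all features from 0 to 143 in Ribo-seq, from 0 to 1 in TER, from 738 to 1453 in S1 and from 1760 to 5760 in V1, and without a filter TER calls went from 0 to 823. With 1 replicate left out, the calls among members ranged from 0 to 2 in S1, and those over all features from 0 to 24 in Ribo-seq, from 481 to 1104 in S1 and from 874 to 3684 in V1. The 1104 come from 16403 transcripts tested without S1 control replicate 1, against 4721 in the other S1 fits. In these fits a lone sample is assumed to vary like the other group, and the replicate numbers are unmatched. The log2 differences then ranged in Ribo-seq from −0.056 to 0.35 for DNAJB1, −0.42 to 1.43 for HSP90AB1, −0.44 to 1.79 for HSPA8, −0.16 to 0.86 for HSPB1, −0.34 to 1.22 for HSPD1, −0.16 to 1.40 for HSPH1, 0.22 to 1.72 for HSP90AA1 and 0.18 to 0.65 for the HSPE1 row. In TER they ranged from −0.0067 to 0.40 for DNAJB1, −0.13 to 1.37 for HSP90AA1, −0.42 to 1.42 for HSP90AB1, −0.46 to 1.77 for HSPA8, −0.69 to 0.32 for HSPB1, −0.21 to 1.35 for HSPD1, −0.34 to 1.22 for HSPH1 and 0.14 to 0.61 for the HSPE1 row. In S1 the ranges were −0.064 to 0.66 for HSPH1, −0.71 to 0.10 for DNAJB1, −0.48 to 0.16 for HSPB1, −0.049 to 0.42 for HSP90AB1, 0.23 to 0.91 for HSPD1 and 0.66 to 0.94 for HSP90AA1. In V1 they were −0.60 to 0.053 for HSPB1, −0.13 to 0.35 for HSP90AB1, 0.083 to 0.45 for HSP90AA1, −0.41 to −0.00081 for DNAJB1, 0.12 to 0.40 for HSPH1 and 0.24 to 0.55 for HSPD1. Scaling to the library total moved the median of all transcripts by −0.37 in S1 and −0.16 in V1 and turned HSPH1 (−0.026) and HSP90AB1 (−0.14) in S1 and HSP90AB1 (−0.053) in V1, while leaving the most covered transcript out of that total moved it by −0.015 and 0.11. Scaling to the full total moved the median log2 V1 to S1 ratio of the 6 transcripts from 0.34 to 0.25 in KD and from 0.25 to 0.13 in control. Median-of-ratios scaling moved the all-gene log2 Ribo-seq to RNA-seq ratio by 0.33 and the members' median from −0.22 to 0.16, and the TER median by −0.12. The causes were not tested. RPKM holds no depth, so the precision of the Ribo-seq values rests on 2 replicates.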
